A study of Mus musculus with 677 samples.

Results

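The genes described are 10 transcripts that cells switch on within minutes of a stimulus or of heat, and that are often watched as signs of stress from tissue dissociation: Fos, Jun, Junb, Egr1, Atf3, Ier2, Zfp36, Dusp1, Hspa1a and Hspa1b. They were taken by name from a table of 23420 genes, and all 10 were found. The table holds 677 single epithelial cells of the mouse intestine, profiled with SMART-Seq2, a plate-based method that reads full-length cDNA of single cells. They came from Atg16l2 knockout (KO) mice and from wild-type (WT) mice, both on a C57BL/6 background, with 80 to 87 cells for each animal code and run. Atg16l2 is a homologue of the autophagy gene Atg16l1, and the study examined what its loss does in this tissue. The labels used here do not state the age, the targeting of the knockout, the dissociation or any sort. The library titles give 2 codes per genotype, M1 and M2, which are read here as animals, 2 runs, and 1 of 9 cell types named by the authors. Whether M1 of run 1 is the same animal as M1 of run 2 is not stated.

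Immediate early genes need no new protein synthesis for their induction. Growth factor, stress and injury signals reach them through the MAP kinase pathways and the factors SRF, ELK and CREB, and their transcripts are short-lived. Fos, Jun and Junb encode subunits of AP-1, a dimeric transcription factor; Egr1 is a zinc finger transcription factor; and Atf3 is a stress-induced member of the ATF/CREB family. Ier2 encodes a small nuclear protein of the same early wave. Zfp36 encodes tristetraprolin, which destabilises AU-rich mRNAs, and Dusp1 a phosphatase that switches MAP kinases off, so both act as brakes on the response. Hspa1a and Hspa1b encode the inducible HSP70 chaperones and are switched on by heat shock factor HSF1. In the gut, Jun is known as a target of Wnt and JNK signalling in crypt cells, where stem cells and transit amplifying (TA) cells divide before their daughters differentiate into enterocytes or secretory cells.

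The unit throughout is TPM, a transcript abundance that is corrected for transcript length, is scaled to the same total in every cell and keeps no record of read depth. A median KO cell had 6170 genes above 0 TPM and a median WT cell 6042; the medians were 6477 in run 1 and 5730.5 in run 2. No KO cell had Atg16l2 above 0 TPM (a floor of 3 counts is a share of 0.877%, and the exact 95% interval reaches 1.07%), against 11.3% of WT cells. For each of the 7 types with a marker list of its own (Stem, TA, Enterocyte, Goblet, Paneth, Enteroendocrine and Tuft), the summed markers were highest in the cells of that name. Summed markers of T cells (6 of 7 listed genes in the table) stood at 1.66 to 2.92 TPM per animal, those of B and plasma cells (4 of 5) at 2.21 to 5.06, of myeloid cells (6 of 6) at 5.94 to 10.6, and of stroma, endothelium and red cells (8 of 9) at 30.6 to 41.2, with none of these genes at 0 in every cell.

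Ier2 was the one member present in most cells. It was above 0 TPM in 628 of 677 cells (92.8%, exact binomial 95% interval 90.5 to 94.6%), with a mean of 112.5 TPM, a median of 94.9 TPM and a highest cell of 909 TPM. By its mean it ranked 1195 of the 23420 genes. Intervals on shares cover counting error over cells and not the spread between animals.

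Junb, Jun, Zfp36 and Fos were patchy. Junb had a mean of 23.4 TPM and was above 0 in 50.1% of cells, Jun a mean of 17.1 TPM in 35.5%, Zfp36 a mean of 6.99 TPM in 35.5%, and Fos a mean of 12.5 TPM in 16.4%. Fos was therefore rare but high where present: its median over positive cells was 41.9 TPM, against 34.9 TPM for Junb, 30.3 TPM for Jun and 13.3 TPM for Zfp36.

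The other 5 members were each above 0 TPM in under 10% of cells. Egr1 was above 0 in 41 cells (6.06%), Dusp1 in 38 (5.61%), Hspa1b in 32 (4.73%), Hspa1a in 25 (3.69%) and Atf3 in 15 (2.22%). Their means were 2.04 TPM for Egr1, 2.01 TPM for Dusp1, 1.42 TPM for Hspa1a, 0.435 TPM for Atf3 and 0.392 TPM for Hspa1b. A handful of cells carried most of that signal. The 10 highest cells held 97.3% of the summed TPM of Atf3, 90.1% of Hspa1a, 83.01% of Egr1, 61.8% of Dusp1 and 59.7% of Hspa1b, but 6.12% of that of Ier2 and 11.4% of that of Junb. The coefficient of variation between cells ran from 0.843 for Ier2 to 12.2 for Hspa1a.

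**Figure D1:**
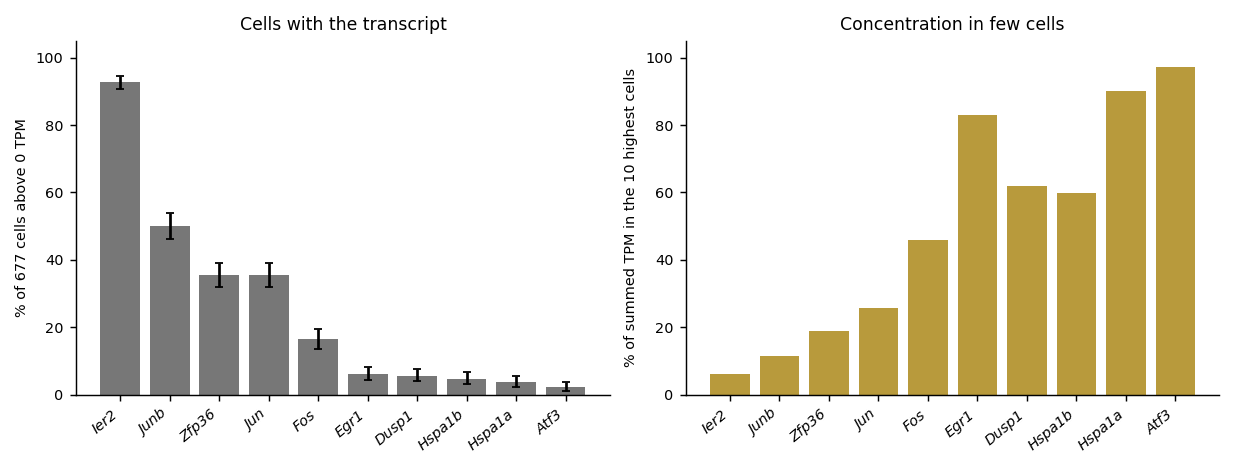
Left, percent of the 677 cells above 0 TPM for each gene with exact binomial 95% intervals; right, percent of the summed TPM of each gene that lies in its 10 highest cells. Ier2 was above 0 in 92.8% of cells and Atf3 in 2.22%, while the 10 highest cells held 6.12% of the Ier2 signal and 97.3% of the Atf3 signal.

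The constitutive relatives of the inducible chaperones stood far apart from them. Hspa8, the constitutive HSC70 chaperone, and Hsp90ab1, the constitutive HSP90, were above 0 TPM in 100% of cells, with Hspa8 at 2444 and 2685 TPM in the KO animals and 2693 and 2895 TPM in the WT animals as an average of 6 cell types. Of the 20 listed heat shock genes and co-chaperones other than Hspa1a and Hspa1b, 14 were above 0 TPM in at least 50% of cells. The other early genes covered the whole range of detection. Of the 20 other early transcription factors, 8 were above 0 in at least 50% of cells and 6 in under 10%; Klf3, at 78.4%, and Myc, at 66.8%, are among the first and Egr3, at 0.148%, and Nr4a1, at 2.22%, among the second. Of the 25 feedback regulators, 5 were above 0 in at least 50% of cells, among them Btg1 at 87.3% and Nfkbia at 81.7%, and 5 in under 10%. Fosb, an AP-1 partner, was above 0 in 1.48% of cells. None of the 11 early secreted factors reached 50% and 9 were under 10%, among them Cxcl1 at 0.295%.

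Jun followed the crypt. Levels are given as the mean over cells for each animal code, with the mean ± SD of the 4 codes, for the 6 types with at least 10 cells in each code. Because the authors named the types from these same cells, differences between types are a description with no test. Jun stood at 57.7 and 39.3 TPM in KO Stem cells and 42.2 and 45.2 TPM in WT Stem cells (46.1 ± 8.11 TPM, SD, n = 4). It stood at 24.5 ± 6.16 TPM in TA, 16.3 ± 19.9 in Goblet, 6.08 ± 4.19 in Enterocyte, 2.05 ± 1.72 in early enterocyte progenitors (Enterocyte.prog.early) and 0.981 ± 1.12 in late ones (Enterocyte.prog.late). All 4 Stem values lay above all 4 TA values; each later pair of neighbours in that order overlapped. Stem exceeded Enterocyte 7.58-fold, in 4 of 4 animal codes and in 8 of 8 combinations of code and run. The minimum of 10 cells holds for codes and not for combinations. Goblet had 3 cells in WT M1 of run 2, and Stem had 4 in KO M2 of run 1. Jun was above 0 TPM in 71.9% of the 96 Stem cells (exact interval 61.8 to 80.6%) and in 5.33% of the 75 late progenitors (1.47 to 13.1%).

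Ier2 had the same crypt side but a shallower range. It stood at 153.04 ± 8.75 TPM in TA and 151.95 ± 14.99 TPM in Stem cells, then 104.03 ± 24.7 in Goblet, 92.5 ± 11.3 in early progenitors, 87.1 ± 35.5 in late progenitors and 70.004 ± 18.8 in Enterocyte. TA exceeded Enterocyte 2.19-fold, in 8 of 8 combinations. All neighbours in that order overlapped between animal codes, and TA and Stem differed by less than their spread.

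Junb and Zfp36 leaned the other way, towards the villus. Junb stood at 36.9 ± 6.89 TPM in Enterocyte and 33.5 ± 11.7 TPM in late progenitors, then 27.3 ± 7.53 in Goblet, 20.8 ± 8.58 in Stem, 19.7 ± 1.19 in early progenitors and 14.2 ± 3.34 in TA. The last step, early progenitors above TA, was the one between neighbours with no overlap. Junb was above 0 TPM in 72.4% of 58 Enterocyte cells and 30.3% of TA cells, and Enterocyte lay above TA in 8 of 8 combinations. Zfp36 stood at 16.5 ± 1.502 TPM in late progenitors and 14.9 ± 6.07 TPM in Enterocyte. Both exceeded early progenitors at 6.81 ± 1.69 without overlap, and Goblet at 5.90 ± 3.23, TA at 4.47 ± 2.54 and Stem at 2.95 ± 2.40 followed. Zfp36 was above 0 TPM in 62.7% of late progenitors and 11.5% of Stem cells. The AP-1 subunits Jun and Junb thus differed in their highest type, Stem for Jun and Enterocyte for Junb, while Goblet was the third of 6 types for both. Stem was 47.0-fold above late progenitors for Jun. The Junb level in Stem was 0.621 times that in late progenitors, but it was the higher of the pair in 1 of 4 codes and in 4 of 8 combinations. Against Enterocyte, Junb in Stem was 0.564 times as high, and it was the higher one in 0 of 4 codes and 1 of 8 combinations.

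The sequences upstream of the genes with such orders are shown with matches to motifs of early signals. Whether the matches bear on the orders was not tested. Each line gives the 250 bases before the RefSeq start on GRCm38.p6, 5′ to 3′, with matches to the searched motifs in capitals. The build used by the authors is not given in the sources used here.
Jun (chr4:95052223-95052472, minus strand): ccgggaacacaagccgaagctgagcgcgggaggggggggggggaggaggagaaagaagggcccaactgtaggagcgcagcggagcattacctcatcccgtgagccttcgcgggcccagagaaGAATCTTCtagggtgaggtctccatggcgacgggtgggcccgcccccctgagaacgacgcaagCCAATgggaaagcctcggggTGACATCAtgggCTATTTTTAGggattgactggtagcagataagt
Junb (chr8:84978749-84978998, minus strand): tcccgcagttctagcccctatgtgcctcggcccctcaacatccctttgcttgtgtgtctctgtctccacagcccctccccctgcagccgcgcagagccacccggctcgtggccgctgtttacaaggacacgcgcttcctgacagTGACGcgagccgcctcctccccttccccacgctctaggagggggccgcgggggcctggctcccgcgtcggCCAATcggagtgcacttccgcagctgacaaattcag
Zfp36 (chr7:28379229-28379478, minus strand): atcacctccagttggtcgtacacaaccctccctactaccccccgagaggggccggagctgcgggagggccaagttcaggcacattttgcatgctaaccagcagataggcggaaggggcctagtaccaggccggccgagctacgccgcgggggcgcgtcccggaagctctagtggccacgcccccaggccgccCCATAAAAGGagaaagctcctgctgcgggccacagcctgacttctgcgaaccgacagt
Dusp1 (chr17:26508473-26508722, minus strand): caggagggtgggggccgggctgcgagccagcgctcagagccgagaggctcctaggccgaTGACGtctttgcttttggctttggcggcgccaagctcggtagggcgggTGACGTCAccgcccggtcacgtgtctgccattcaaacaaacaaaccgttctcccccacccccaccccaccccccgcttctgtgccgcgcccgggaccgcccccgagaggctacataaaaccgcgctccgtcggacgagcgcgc
Both strands were searched for TGACNTCA and its shorter form TGACG (cAMP response or Jun-type sites), TGANTCA (AP-1), GAANNTTC (a heat shock element pair), the CCAAT box, the TATAAA form of the TATA box, a MEF2-type site (the last capitals of the Jun line) and the CArG box bound by SRF. Jun held TGACNTCA, found in 7.49% of 32851 windows of the same length, GAANNTTC, found in 6.69%, a CCAAT box, found in 33.8%, and the MEF2-type site, found in 0.103%. The MEF2-type site was searched as a single fixed sequence, so its share cannot be set beside those of shorter or variable motifs. Junb held TGACG (17.8% of windows) and a CCAAT box. Zfp36 held a CArG box, found in 1.47% of windows. Dusp1 held TGACNTCA and 3 matches to TGACG, of which 2 lie within the TGACNTCA match on opposite strands. These matches describe letters in a window and no binding was measured. Ier2 and Egr1 are named without a sequence.

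Among the 6 types, Dusp1 stood apart in Goblet cells, the mucus-secreting lineage. It stood at 5.67 and 14.1 TPM in KO Goblet cells and 7.23 and 12.03 TPM in WT Goblet cells (9.76 ± 3.97 TPM, SD, n = 4), above every animal value of the next type, early progenitors at 1.45 ± 1.03 TPM. It was above 0 TPM in 16 of 70 Goblet cells (22.9%, exact interval 13.7 to 34.4%) and was listed at 0 in all 75 late progenitors, where a floor of 3 counts is a share of 4% and the exact 95% interval reaches 4.80%. Some cells labelled Goblet carried Paneth markers: 6 of the 70 had more summed Paneth than Goblet marker TPM, 5 of them in KO M1. In the other 64 cells Dusp1 was above 0 in 15 (23.4%), with a mean of 10.3 TPM, so the level was as high without them.

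Fos varied widely between animals within each type. Its means ran from 21.1 ± 15.2 TPM in Enterocyte through 17.1 ± 17.8 in TA, 16.8 ± 18.4 in Goblet, 14.95 ± 9.27 in late progenitors and 6.76 ± 4.53 in early progenitors to 3.95 ± 5.70 in Stem cells, and every pair of neighbours overlapped. Stem was the lowest type: it lay below Enterocyte and below late progenitors in 4 of 4 codes, and it was the higher one in 2 of 8 combinations against Enterocyte and in 1 of 8 against late progenitors. The TA mean over cells was 16.9 TPM, and 9.14 TPM without its highest cell. The Enterocyte mean went from 21.1 to 13.1 TPM in the same way, and the Goblet mean from 20.2 to 13.09 TPM. Egr1, Atf3, Hspa1a and Hspa1b had SDs near or above their means, apart from Hspa1a in early progenitors (0.959 ± 0.286 TPM), with overlap between all neighbours. Egr1 averaged 4.80 TPM over TA cells and 2.04 TPM without the highest. Hspa1a averaged 4.97 TPM over Stem cells and 0.606 TPM without the highest. Atf3 was above 0 TPM in 5 of 70 Goblet cells and 0 of 58 Enterocyte cells.

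The 3 scarcer types had too few cells per animal for a level with a spread. Ier2 was above 0 TPM in all 22 Paneth cells, at a mean of 31.5 TPM, and in 19 of 32 Enteroendocrine cells (59.4%), at 60.6 TPM. It was above 0 in all 7 Tuft cells, at a mean of 169.5 TPM, or 138.5 TPM without the highest cell. Over Stem cells its mean was 153.6 TPM and over TA cells 152.5 TPM. Jun was above 0 in 15 of the 22 Paneth cells at a mean of 3.33 TPM, a low level in many cells, whereas it was above 0 in 3 of the 7 Tuft cells at a mean of 38.1 TPM. Junb averaged 29.98 TPM in Enteroendocrine, 5.53 TPM in Paneth and 65.5 TPM in Tuft cells. Dusp1 averaged 2.64 TPM in Enteroendocrine, 0.0514 TPM in Paneth and 9.44 TPM in Tuft cells, beside 9.65 TPM over Goblet cells. In Tuft it was above 0 in 2 of the 7 cells, and the mean was 0.328 TPM without the highest cell.

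**Figure D2:**
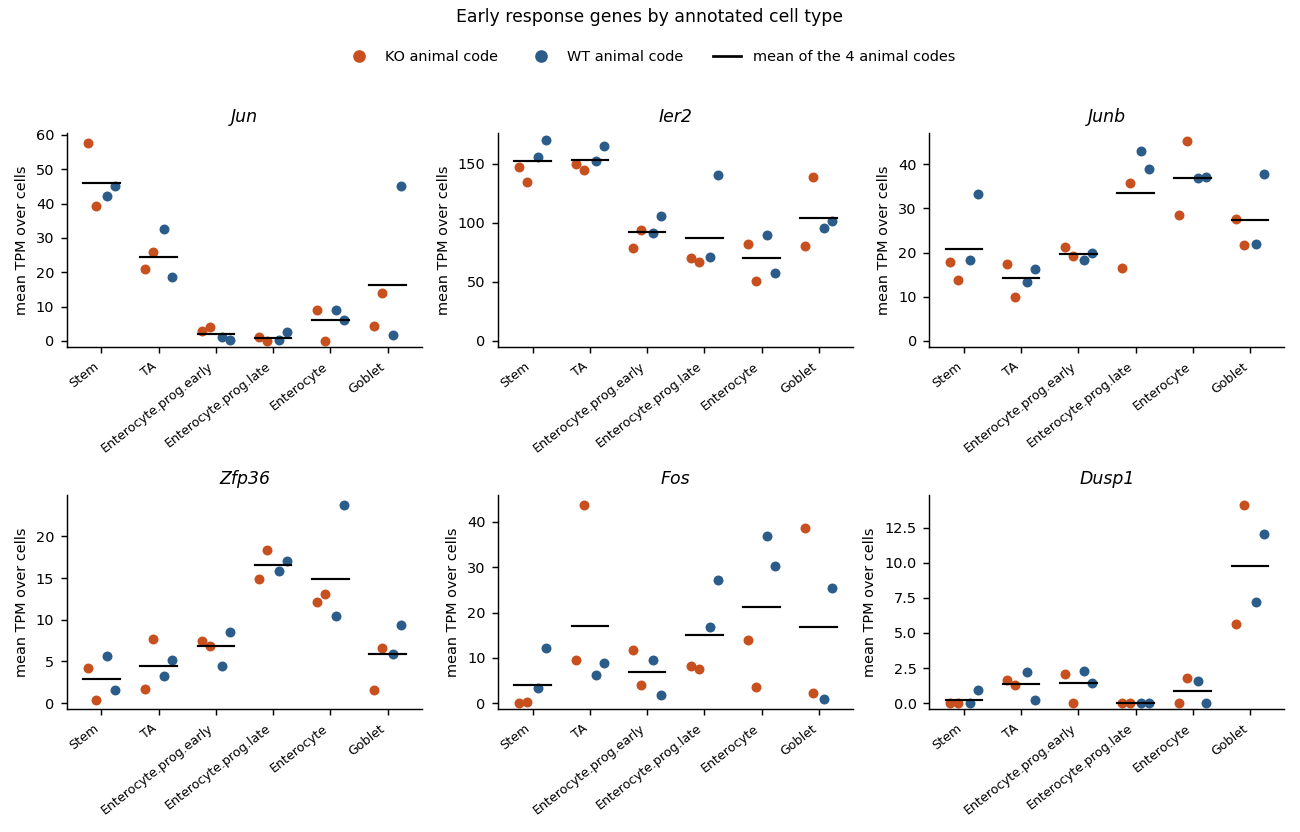
Mean TPM over cells for 6 genes in 6 cell types; each point is an animal code (KO orange on the left, WT blue on the right) and the bar is the mean of the 4 codes. Jun was highest in Stem cells (46.1 TPM) and Ier2 in TA (153.04 TPM) and Stem cells, Junb (36.9 TPM) and Zfp36 (14.9 TPM) were high in Enterocyte cells, Dusp1 stood apart in Goblet cells (9.76 TPM), and the Fos points overlapped between types.

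Most single cells had few of the members above 0 TPM. The median cell had 2 of the 10 above 0 TPM, and 12 cells had none. Low counts follow when 5 of the 10 are each above 0 in under 10% of cells. They do not show whether members came up together more or less than their shares give. In 46 cells 5 or more were above 0, and the highest number was 8. These 46 cells made up 4.07% of KO M1, 6.47% of KO M2, 3.57% of WT M1 and 13.2% of WT M2 cells, in total 18 KO and 28 WT cells. Within WT M2 the share was 13.8% in run 1 and 12.5% in run 2. By type it was 18.6% of Goblet, 18.2% of the 22 Paneth, 14.3% of the 7 Tuft and 10.3% of Enterocyte cells. It was 3.13% of Stem and of Enteroendocrine cells, and lowest in late progenitors at 2.67%.

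A few cells showed a broad burst. A TA cell of KO M2 in run 1 had 1373 TPM of Fos, 485 TPM of Egr1, 909 TPM of Ier2, 96.7 TPM of Junb, 39.1 TPM of Zfp36 and 33.3 TPM of Jun; its Fos, Egr1 and Ier2 were the highest of all 677 cells. A Goblet cell of WT M2 in run 1 had 366.9 TPM of Jun, 293.2 TPM of Fos, 167.4 TPM of Junb and 113.5 TPM of Hspa1a. Other high cells had a narrower pattern. A Stem cell of KO M1 in run 1 had 476 TPM of Jun and 306.3 TPM of Ier2, with the other 8 members listed at 0. A Stem cell of WT M2 in run 2 had 419 TPM of Hspa1a, 152.3 TPM of Ier2, 47.8 TPM of Junb, 27.05 TPM of Dusp1, 22.4 TPM of Hspa1b and 21.4 TPM of Jun, with Fos, Egr1, Atf3 and Zfp36 listed at 0.

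Across the 677 cells, Spearman correlations between members were low after the mean of each type, animal code and run (65 groups) was subtracted. Zeros of a sparse gene then take minus the mean of their group, so the ranks still carry differences between groups. Over 45 pairs the median rho was 0.070, the range -0.089 to 0.304, and 3 pairs were above 0.2. These were Hspa1a with Hspa1b (0.304, 7 cells with both), Fos with Egr1 (0.272) and Egr1 with Atf3 (0.254, 4 cells with both). Over all cells without this centring, the values of these pairs were 0.220, 0.223 and 0.130 in that order. Egr1 cells held Fos often: 19 of 41 Egr1 cells (46.3%) had Fos above 0, which is 17.1% of all Fos cells. Cells in such a correlation share libraries and a depth that is unknown. The correlation of each member with the number of genes above 0 in a cell ran from 0.00 for Atf3 to 0.081 for Hspa1a.

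**Figure D3:**
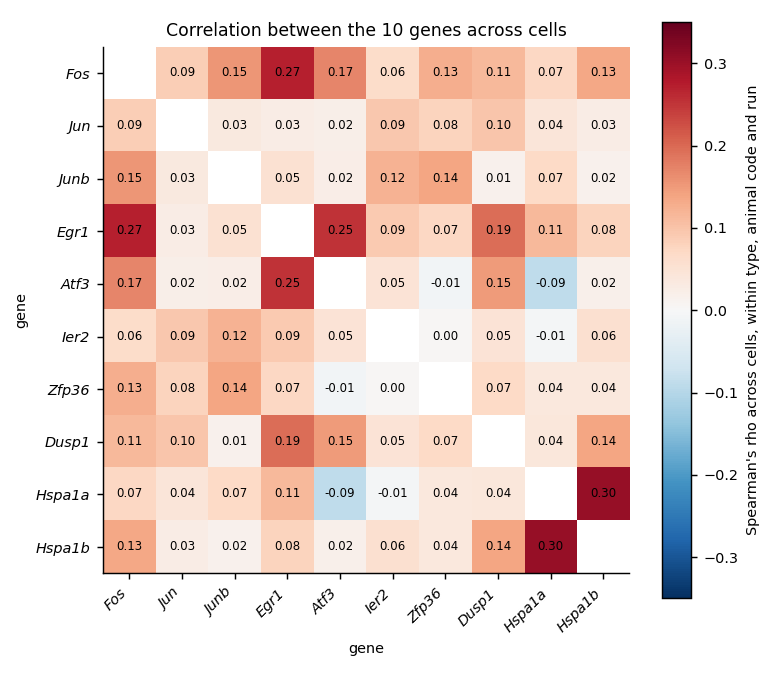
Spearman's rho between the 10 genes over 677 cells after centring log2(TPM + 1) within cell type, animal code and run. For sparse genes the ranks still carry differences between these groups. The largest values were 0.304 for Hspa1a with Hspa1b and 0.272 for Fos with Egr1, and the median of the 45 pairs was 0.070.

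Among 6809 other genes, those with the highest rho after the same centring were named. For Jun they were Lgr5 (0.327), Soat1 (0.215) and Olfm4 (0.210), of which Lgr5 and Olfm4 are intestinal stem cell markers. For Ier2 they were Rpl3 (0.193), Hnrnpf (0.188) and Pabpc1 (0.185), which serve the ribosome, splicing and the poly(A) tail. For Dusp1 they were Tuba1a (0.212), Hepacam2 (0.194) and Agr3 (0.188), and for Zfp36 Mep1b (0.171), Gm8909 (0.161) and Gsta1 (0.157). For Junb they were Efcab4a (0.147), Myl12b (0.144) and Gpd1 (0.143), and for Fos Slc18a1 (0.229), Ggt1 (0.189) and Kdelr3 (0.173). Egr1 had Reg4 (0.283), Ptprn2 (0.186) and Slc2a5 (0.185), and Atf3 had Tuba1a (0.335), Chp2 (0.202) and Defa5 (0.194). Hspa1a had Clps (0.193), Pcsk1 (0.175) and Steap1 (0.172), and Hspa1b had Ccl6 (0.215), Gadd45g (0.155) and Gstm4 (0.155). For the mean of the 10 they were Ovol1 (0.181), Sepp1 (0.170), Chmp4c (0.166), H2-T23 (0.166) and Sectm1b (0.160). For sparse genes such values are weak, rest on few cells and still carry differences between groups.

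Hspa1a and Hspa1b are near-identical neighbours, and their values are uncertain for that reason. Their upstream sequences, shown because they differ at 3 of 250 bases, are as follows, in the same layout and build as those given for Jun and Junb.
Hspa1a (chr17:34972157-34972406, minus strand): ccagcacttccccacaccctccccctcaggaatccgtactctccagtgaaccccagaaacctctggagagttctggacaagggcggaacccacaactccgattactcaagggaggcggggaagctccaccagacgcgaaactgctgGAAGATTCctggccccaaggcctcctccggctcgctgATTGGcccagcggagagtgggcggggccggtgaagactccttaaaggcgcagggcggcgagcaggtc
Hspa1b (chr17:34959239-34959488, minus strand): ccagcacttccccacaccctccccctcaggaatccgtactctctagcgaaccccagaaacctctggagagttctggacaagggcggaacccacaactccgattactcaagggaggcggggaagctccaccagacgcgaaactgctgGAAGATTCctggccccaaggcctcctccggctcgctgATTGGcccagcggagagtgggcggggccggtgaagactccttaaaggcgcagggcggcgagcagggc
Both hold GAANNTTC and a CCAAT box, which reads ATTGG on the printed strand, at the same distance from the start. In the GENCODE M21 transcripts, 58.8% of the 50-base windows of Hspa1a also occur in Hspa1b, and 62.3% of those of Hspa1b in Hspa1a, so reads shared by the pair are divided by estimation.

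None of the members was called between genotypes. On the log2 scale of TPM + 1, with the mean over cells of each animal code averaged over 6 types, limma called 0 of the 4 members that passed the filter on low values (Fos, Jun, Junb and Ier2; mean of at least 10 TPM and above 0 in at least 10% of cells). Over all 6714 genes tested it called 0, or 0%, with 510 at an unadjusted p under 0.05 and a smallest Benjamini-Hochberg adjusted p of 0.219; without KO M2 the called share was 0.285%. With 2 animal codes per genotype, a difference of these sizes is not shown to be absent. The median of the 4 differences was -0.23, beside a median of 0.026 over all genes.

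The KO values were mostly the lower ones. Ier2 stood at 101.3 and 105.02 TPM in KO animals, against 109.3 and 123.4 TPM in WT animals, a log2 difference of -0.18 (SE 0.13, limma adjusted p = 0.766). Junb stood at 21.5 and 24.3 TPM in KO animals, against 25.3 and 30.6 TPM in WT animals, a difference of -0.28 (SE 0.19, limma adjusted p = 0.743). In both, each KO animal lay below each WT animal, as in 18.1% of the 6714 genes. For Junb the difference was -0.43 in run 1 and 0.028 in run 2, and these did not differ past the threshold (-0.46, SE 0.45, limma adjusted p = 0.864). For Ier2 it was -0.17 in run 1 and -0.18 in run 2. Fos stood at 13.6 and 10.2 TPM in KO animals, against 12.3 and 17.7 TPM in WT animals, a difference of -0.59 (SE 0.34, limma adjusted p = 0.706) with overlapping groups. Jun stood at 16.04 and 13.9 TPM in KO animals, against 14.5 and 19.6 TPM in WT animals; its difference of -0.11 (SE 0.30, limma adjusted p = 0.945) was 0.44 in run 1 and -0.41 in run 2.

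For the 6 members below the filter, the fit without it gave differences of -0.47 for Hspa1a, -0.47 for Hspa1b, -0.30 for Zfp36, -0.22 for Atf3, -0.13 for Dusp1 and 0.14 for Egr1, each with a limma adjusted p of 0.854 or more. Atf3 stood at 0.547 and 0.115 TPM in KO animals, against 0.560 and 0.657 TPM in WT animals. Hspa1b stood at 0.0265 and 0.277 TPM in KO animals, against 0.255 and 1.11 TPM in WT animals, so the groups overlapped. Zfp36 stood at 7.005 and 8.83 TPM in KO animals, against 7.60 and 10.9 TPM in WT animals. Hspa1a, at 0.127 and 1.02 TPM in KO animals, against 0.195 and 4.30 TPM in WT animals, was carried by WT M2. Over all 10 members, 3 lay lower in each KO animal than in each WT animal (Junb, Atf3 and Ier2), and none lay higher in each; of the 20861 genes seen in at least 1 cell, 14.4% lay lower in that way.

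Shares of positive cells were also lower in KO for several members. Cells of all types and of both codes are pooled here, so the intervals cover counting error and not the spread between animals. The shares are not balanced for type, and Stem cells numbered 29 and 18 in the KO codes and 20 and 29 in the WT codes. Fos was above 0 TPM in 42 KO cells (12.3%, exact interval 8.996 to 16.2%) and 69 WT cells (20.6%, 16.4 to 25.3%). By animal the Fos shares were 11.6% and 12.9% in KO, against 14.3% and 26.9% in WT, with WT M2 at 27.6% in run 1 and 26.3% in run 2. Hspa1b was above 0 in 6 KO cells (1.75%, 0.646 to 3.78%) and 26 WT cells (7.76%, 5.13 to 11.2%). Its shares were 0.581% and 2.94% in KO animals, against 4.76% and 10.8% in WT animals. For 5 of the 10 members (Fos, Jun, Junb, Atf3 and Hspa1b) each KO animal had a lower share than each WT animal, against 15.3% of 20861 genes. The smallest two-sided p that an exact permutation test of 2 against 2 animals can give is 0.333, so no share was tested.

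**Figure D4:**
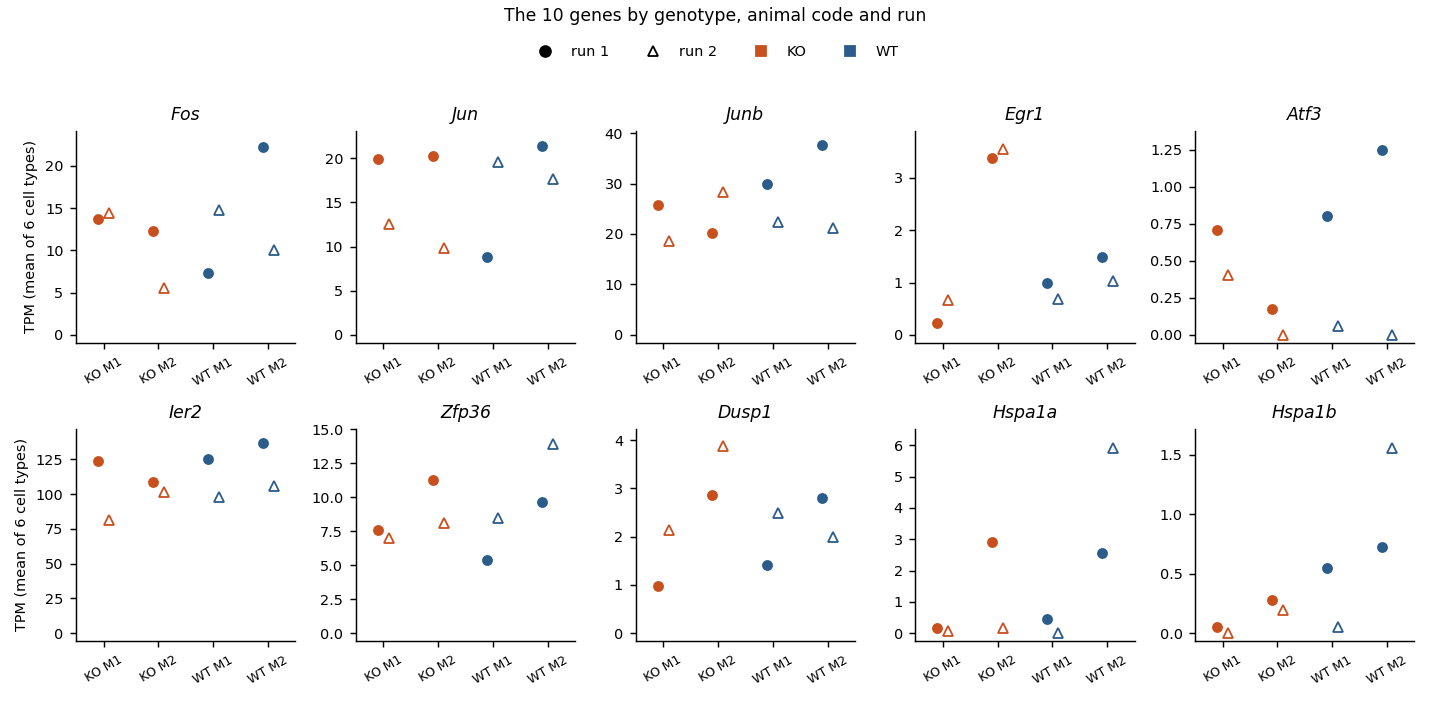
TPM of each of the 10 genes as the mean of 6 cell types, for KO M1 and KO M2 (orange, left) and WT M1 and WT M2 (blue, right), in run 1 (filled circles) and run 2 (open triangles). Ier2 was higher in run 1 in all 4 codes, the KO and WT points overlapped for each gene once runs are shown apart, and the highest Hspa1a and Hspa1b points were WT M2 of run 2.

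Within single cell types, 0 of the 21 pairs of a member and a type that passed the filter were called, beside 12 of 38302 pairs of a gene and a type (0.0313%, and 1.09% without KO M1). The called share of all genes was 0.0342% in Enterocyte, 0.0817% in late progenitors, 0.0161% in Goblet, 0.0589% in TA, and 0% in early progenitors and in Stem. The 3 member pairs with an unadjusted p under 0.05 were all Fos, and they differed in direction. In Enterocyte cells Fos stood at 13.8 and 3.55 TPM in KO animals, against 36.9 and 30.3 TPM in WT animals, a log2 difference of -2.07 (SE 0.62, limma adjusted p = 0.398) that was 0.23 in run 1 and -2.92 in run 2. A single cell among the 18 of WT M1 held 474.2 TPM, so the WT M1 value leans on that cell. Over all Enterocyte cells the Fos mean was 21.1 TPM, and 13.1 TPM without it. In late progenitors Fos stood at 8.15 and 7.49 TPM in KO animals, against 16.9 and 27.3 TPM in WT animals, a difference of -1.35 (SE 0.54, limma adjusted p = 0.816). Of the pairs below the filter, 3 had an unadjusted p under 0.05 in the fit without it, and they too differed in direction. In Stem cells Fos stood at 0 and 0.302 TPM in KO animals, against 3.27 and 12.2 TPM in WT animals, a difference of -2.72 (SE 0.75, limma adjusted p = 0.871). In early progenitors Hspa1b stood at 0.159 and 0 TPM in KO animals, against 1.21 and 1.37 TPM in WT animals, a difference of -1.09 (SE 0.20, limma adjusted p = 0.877). In the same type Jun was higher in KO, at 2.88 and 4.03 TPM in KO animals, against 1.07 and 0.219 TPM in WT animals, a difference of 1.48 (SE 0.44, limma adjusted p = 0.877).

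In TA cells the order was turned. Fos stood at 9.56 and 43.8 TPM in KO animals, against 6.28 and 8.90 TPM in WT animals, a difference of 1.36 (SE 0.53, limma adjusted p = 0.572). The cell with 1373 TPM belongs to KO M2, and with the highest cell left out the difference was 0.74. Without KO M1 it was 2.40 (limma adjusted p = 0.00371, with KO M2 as the lone KO value, assumed to vary like the WT values), and without KO M2 it was 0.31. When log values were averaged over cells it was 0.093.

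The titles number 2 runs and do not say what a run is. Ier2 was the one member of the 4 that passed the filter whose values did not overlap between runs. Run 1 gave 123.8 ± 11.7 TPM and run 2 gave 96.6 ± 10.6 TPM (SD, n = 4 combinations each), and no run 1 value overlapped a run 2 value, as in 8.04% of 6714 genes in that direction. The log2 difference was 0.35 (SE 0.14), with a limma adjusted p of 0.354. It stands beside a median shift of 0.19 over all genes, 78.4% of which were higher in run 1, and it was 0.14 after quantile normalization, where the median over all genes was 0.011. limma called 0 of 4 members and 1 of 6714 genes (0.0149%, and 6.60% without the run 1 cells of KO M2). Among the members below the filter, Atf3 was higher in run 1 in 4 of 4 codes, at 0.736 ± 0.441 TPM in run 1 and 0.115 ± 0.193 TPM in run 2 with overlap between the runs. It was above 0 TPM in 12 run 1 cells (3.52%) and 3 run 2 cells (0.893%), and its log2 difference was 0.36 in the fit without the filter (limma adjusted p = 0.530). Fos differed by 0.42 and was -0.13 with its highest cell left out, Jun by 0.51 and Junb by 0.23. The genotype difference in run 1 minus that in run 2 was called for 0 of 4 members and 0 of 6714 genes (0%, and 3.75% without KO M1), with 418 genes at an unadjusted p under 0.05.

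Lists of partner and pathway genes, chosen by function, gave no call between genotypes either, with 0 called in each. Of the AP-1 partners 3 of 13 passed the filter, 1 of them higher and 2 lower in KO, with a median of -0.13. Of other early transcription factors 10 of 20 passed (4 higher and 6 lower, median -0.17), with Id3 at -0.55 and Id1 at -0.56, inhibitors of basic helix-loop-helix factors whose values in run 2 were 0.062 and 0.14. Of feedback regulators 8 of 25 passed (6 higher and 2 lower, median 0.11), with Gadd45a at 0.92 (SE 0.35, limma adjusted p = 0.596). Gadd45a stood at 11.8 and 20.7 TPM in KO animals, against 13.1 and 7.10 TPM in WT animals, so the groups overlapped. None of the 11 early secreted factors passed. Of the upstream kinases, receptors and factors 11 of 22 passed, 10 higher and 1 lower, with a median of 0.12. Over all genes 54.9% were higher.

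Heat shock genes and co-chaperones passed most often, 15 of 20, with 4 higher and 11 lower in KO and a median of -0.11. Hsph1, an HSP110 cochaperone of HSP70 and a classical HSF1 target, had the smallest p of the listed genes. It stood at 38.96 and 37.9 TPM in KO animals, against 54.7 and 63.5 TPM in WT animals, a difference of -0.65 (SE 0.17, limma adjusted p = 0.499). It was lower in KO under all 20 alternatives tried, between -0.85 and -0.49, and was called in none. The size varied by type, at -1.21 in Enterocyte, -0.78 in early progenitors and -1.52 in late ones. In TA the Hsph1 difference was -0.30, in Goblet -0.069 and in Stem -0.028, with no call in any type.

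Between runs the same lists also had 0 called. Of the 10 other early transcription factors 10 were higher in run 1, of the 8 feedback regulators 8, of the 15 heat shock genes and co-chaperones 10, of the 11 upstream factors 6 and of the 3 AP-1 partners 2, beside 78.4% of all genes. Their medians were 0.29, 0.19, 0.062, 0.12 and 0.20 in that order, beside 0.19 over all genes. Nfkbia, an inhibitor of NF-kB and an early target of it, differed by 0.88 and Btg1, an antiproliferative early gene, by 0.94 (limma adjusted p = 0.262 each). Without KO M2 they were called, at 0.90 (limma adjusted p = 0.0168) and 1.03 (limma adjusted p = 0.0370), along with 5.84% of all genes.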

How the data were processed

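SMART-Seq2 libraries of 677 single cells (342 KO, 335 WT) were analysed; the labels' protocols also name a 10X Genomics Chromium preparation, and whether it was used for any of these cells is not given in the sources used here. Per the submitters' processing notes, the tools were Bowtie, TopHat and RSEM, with versions and genome build not given in the sources used here. Expression was taken as TPM, as deposited by the authors. Because TPM keeps no depth, an exact 0 may be a missed transcript.

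All columns were matched to a library by its title, and no cell was removed. Mean TPM over cells was taken per animal code and type and transformed as log2(TPM + 1). For combinations of code and run it was taken with no minimum of cells. limma 3.58.1 (R 4.3.3; lmFit, eBayes with trend, two-sided) compared genotypes over 2 against 2 codes, within the 6 types with at least 10 cells in each code and as their unweighted average; the 8 combinations of code and run served for runs and for the difference between runs. Genes needed a mean of 10 TPM and values above 0 in 10% of cells; Benjamini-Hochberg adjustment ran over all kept genes, at 0.05. The labels do not say that the codes are separate animals, so p-values measure the spread between codes. All 10 members are named, with the 3 genes most like each (5 for their mean) and up to 4 per list by smallest p; the pairs of a member and a type given by genotype were chosen by unadjusted p after its values were seen. The members, lists and markers were chosen with earlier results of these data known. Scripts were tested on simulated data. Promoter windows and motifs came from RefSeq (GRCm38.p6; 8 of 10 members matched). Python 3.11.15 with scipy 1.17.1 gave intervals and correlations. Alternatives changed the pseudocount, filter, averaging, normalization, cells, units and replicates.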

Additional observations from a re-analysis of the deposited data

Results flagged for a closer look

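Hspa1a, one of the inducible HSP70 genes, averaged 2.90 TPM over 6 cell types in KO M2 of run 1, far from the other 3 KO combinations, which stood at 0.0797, 0.163 and 0.167 TPM. It was named because the gap to the nearest other value exceeded Dixon's 95% critical value for 4 samples. In that animal and run Hspa1a was above 0 in 4 of 85 cells, and 1 of the 5 Enterocyte cells held 65.4 TPM. Each type has equal weight in the average, so the value leans on that cell. For normally distributed values chance alone flags about 1 in 20 such groups, and 20 groups were screened. Several members are sparse and skewed between cells, so that rate may not hold here.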

How the results depend on the processing

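No member was called for the average of 6 types, for the runs or for the difference between runs under any alternative tried. Within types, 1 of 21 pairs was called without KO M1 and 1 under the crossed replicate block, Fos in TA cells both times (2.40 and 1.36), and the range over codes left out was 0 to 1. The percent of all genes called moved more. For the average (0%) it was 0.0149 after quantile normalization, 0.0593 without cells under 5000 genes, 0.0762 in run 2 cells, 0.0149 with the 8 combinations as units, and 0 to 0.285 with a code left out. Within types (0.0313%) it was 0 with no filter, 0.0684 with a filter of 50 TPM, 0.0496 after quantile normalization, 0 without a trend, 0 with the highest cell left out, 0.0766 without the run 1 cells of KO M2, 0.0103 in run 1 cells, 0.0161 in run 2 cells, 0.00261 with the 8 combinations, and 0.0287 to 1.09 with a code left out. Between runs (0.0149%) it was 0 with no filter, 0.0392 with a filter of 50 TPM, 0.283 with log values averaged over cells, 0.0297 without cells under 5000 genes, 0 with the highest cell left out, 6.60 without the run 1 cells of KO M2, and 0.0148 to 5.84 with a code left out. For the difference between runs (0%), leaving out a code gave 0 to 3.75. The cause of these moves was not tested.

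Same-numbered codes did not deviate together (correlation across genes of -0.13 between KO and WT). The M1 minus M2 deviation did not recur between run 1 and run 2 either, at -0.021 within KO and -0.0087 within WT. The value between KO and WT therefore cannot show whether the numbers pair the samples. The genotype fits pool both runs of a code into a single unit. The replicate block called 0.0298% of genes for the average, 0.264% of pairs within types, 0.0149% of genes between runs and 0.0149% for the difference between runs, with 0 members called. The crossed replicate block, chosen after seeing the data, called 0.655% of genes and 0.433% of pairs.

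The following signs turned. For KO minus WT, Jun was 0.10 without cells under 5000 genes, 0.12 with the highest cell left out, 0.44 in run 1, 0.013 with the 8 combinations, and -0.41 to 0.19 with a code left out. Junb was 0.028 in run 2. Egr1 was -0.014 at a pseudocount of 0.1, -0.053 with log values averaged over cells, -0.060 with the highest cell left out, -0.041 in run 1 and -0.38 to 0.66 with a code left out (-0.020 without WT M1). Atf3 was 0.077 with the highest cell left out and 0.12 in run 2, Zfp36 0.080 and Dusp1 0.17 in run 1, Hspa1a -1.19 to 0.24 with a code left out, and Id1 0.14 and Id3 0.062 in run 2. Fos in Enterocyte cells was 0.23 in run 1. Between runs, Fos was -0.13 with the highest cell left out; Egr1 was 0.026 without cells under 5000 genes, 0.011 with the highest cell left out and -0.12 to 0.031 with a code left out. Zfp36 was 0.070 at a pseudocount of 0.1, 0.18 with log values averaged, 0.10 without cells under 5000 genes and -0.16 to 0.10 with a code left out (0.038 without WT M2). Dusp1 was 0.097 with the highest cell left out and -0.34 to 0.057 with a code left out, and Hspa1b 0.067 at a pseudocount of 0.1, 0.0067 with log values averaged and 0.16 without WT M2. Fos and Ier2 kept a lower KO value for the average under all 20 alternatives tried. Btg1 between runs was called with log values averaged (1.32) and without the run 1 cells of KO M2 (0.97), and Nfkbia without those cells (0.94). The depth of each cell is unknown, so a low share cannot be told apart from missed transcripts.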
